A study of Homo sapiens with 4 samples.

Results

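The genes described here are the human cell cycle, DNA replication and centromere genes that share a naming scheme. They are the A, B, D and E cyclins (CCN), the cyclin-dependent kinases (CDK) and CDC genes with a number (CDC42 left out), the MCM, ORC, CENP and PLK genes, and AURKA, AURKB, BUB1, BUB1B, BUB3, MKI67, TOP2A, CDT1 and GMNN. Members were chosen by symbol, with earlier results of these data known, and the rule found 97 of the 28283 genes in the deposited expression table. CDK11A and CDK11B, which carry a letter, fall outside it. Of the 97 members, 86 carry a gene ontology term of the cell cycle, cell division, DNA replication, mitosis or the centromere, and 44 belong to the KEGG cell cycle pathway.

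The study used A549 cells, a human lung adenocarcinoma line grown in serum-containing medium. Cells carried either a control vector (shNC) or a lentiviral short hairpin RNA against YTHDF2 (shY2-2), and transduced cells were selected with puromycin. Poly(A) RNA of each culture was fragmented, and 1 part was sequenced directly (input) while the other was first precipitated with an antibody against N6-methyladenosine (IP). This gave 4 libraries, 1 of each kind per condition, so every difference below compares 2 single libraries, without replicates and without p-values. A single hairpin and a single transduced culture stand for the knockdown.

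YTHDF2 is a cytoplasmic reader protein that binds N6-methyladenosine (m6A) in mRNA and recruits the machinery that shortens poly(A) tails, so that bound transcripts are degraded. The cell cycle is driven by kinases whose cyclin partners are made and destroyed in turn. MCM helicases are loaded onto origins marked by ORC before S phase, and the CENP proteins build the kinetochore on the centromere, where BUB and Aurora kinases monitor the attachment of chromosomes to the spindle. Many of the transcripts rise and fall within each division, so their level in a culture depends on how its cells are spread over the cycle. In bulk RNA, fewer cells in a phase and less RNA per cell cannot be told apart.

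The targeted gene had an FPKM (fragment number corrected for exon length and library size) of 3.56 in the shNC input and 1.02 in the shY2-2 input. Its log2 ratio was -1.18, where ratios are log2((FPKM shY2-2 + 1)/(FPKM shNC + 1)) throughout, which understates the change of low genes. The depth of these values is unknown, because FPKM does not retain fragment numbers. The epithelial keratins KRT8 and KRT18 were abundant in both inputs (KRT8 at 523 and 322 FPKM, KRT18 at 388 and 281), and all 5 epithelial markers were lower in shY2-2, with log2 ratios from -0.95 to -0.46; their part in the members' values was not tested. Of 5 lung markers, NAPSA and SFTPC were in the table and did not exceed 0.252 FPKM. Of 8 markers of leukocytes, endothelium and fibroblasts, 2 reached an FPKM of 1, CD68 at 12.2 and 10.2 and COL1A1 at 0.834 and 1.64.

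The cell cycle genes as a group were slightly higher in the knockdown, with individual members moving in both directions. In 1 input or both, 91 members reached an FPKM of 1, and the other 6 (CCND2, CCNB3, CCNA1, CDK18, CDK15 and CDC20B) stayed at or below 0.444. The median log2 ratio of the 91 was 0.10, against 0.00 for the 12268 genes that passed the same filter. Ratios were above 0 for 58 members and below 0 for 33. More than 1.5-fold higher in shY2-2 were 9 members, where 5.38% of all genes tested were past that limit. More than 1.5-fold lower were 6 members, where 8.92% of all genes were. These counts are 9.89% and 6.59% of the 91 members, and 76 members lay within 1.5-fold.

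**Figure D1:**
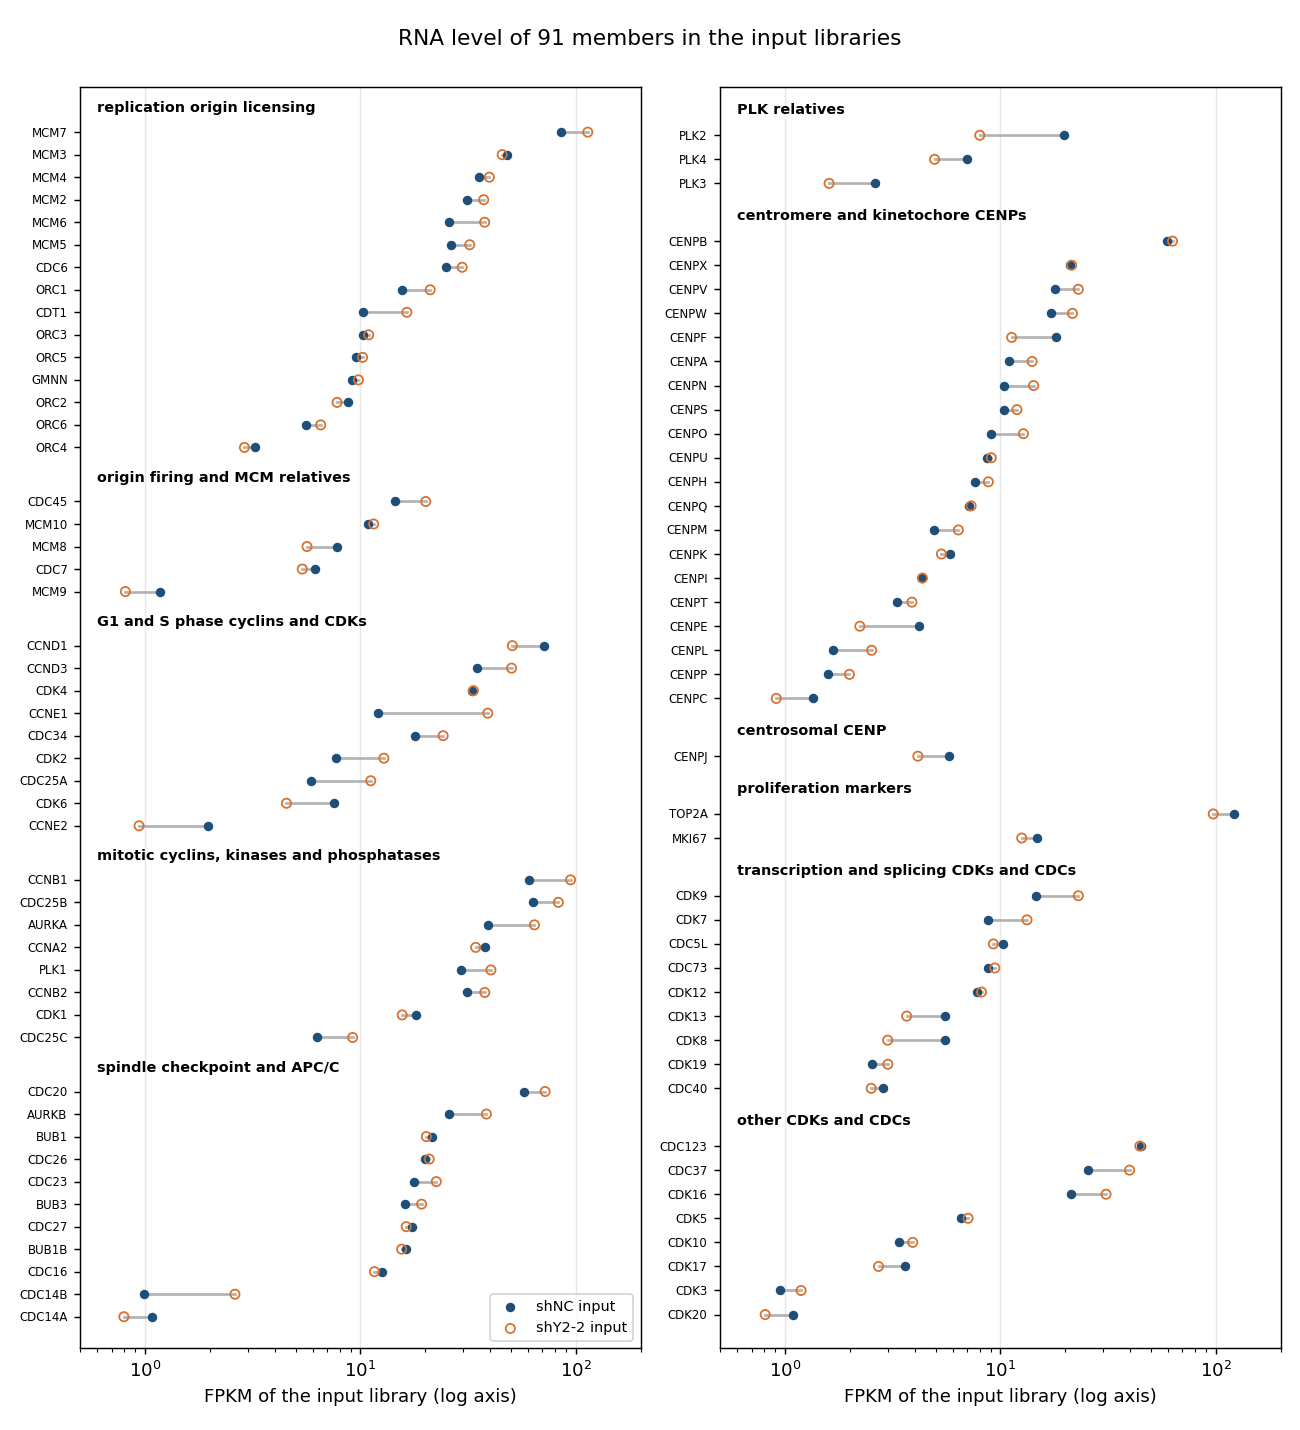
FPKM of each of the 91 members in the shNC input (filled) and the shY2-2 input (open), on a log axis, grouped by role and ordered by mean FPKM. Levels run from about 1 FPKM to 122 FPKM for TOP2A in shNC, and the widest gaps are those of CCNE1, CDC14B and PLK2.

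The 1.5-fold limit falls within a continuous run of values. Just above it stood CDK9 at a log2 ratio of 0.61, and just below it AURKB at 0.56 and CDK7 at 0.55. On the lower side CCNE2 at -0.61 was the last past the limit, while CDK13, PLK3 and CCND1 at -0.48, -0.48 and -0.47 were within it. At a limit of 2-fold, 1 member was higher (CCNE1) and 1 lower (PLK2), beside 0.986% and 2.14% of all genes.

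The results below turn on the transcripts that changed most, so the m6A consensus sites of these transcripts are shown first. GGAC is the most frequent form of that consensus. Of the 15 members past 1.5-fold, 9 held GGAC in the part common to a peak in both conditions at a false discovery rate (FDR) of at most 0.05. Under the same rule 49 of all 97 members held it, so such sites are not particular to the members that changed. For each, 1 such site is printed 5′ to 3′ on the transcript strand with GGAC in capitals, together with that of CENPB, the member whose peak had the lowest FDR.
CCNE1: ttgacctaagGGACtcccacaaca
CDC25A: agtgttggatGGACcacccaaggg
AURKA: agggagccagGGACctcatttcaa
CCNB1: tacttccataGGACatactgcatg
CDT1: tctgaatatgGGACctcccacagc
CDC37: gcctaaaggtGGACccccgggcct
CDK9: gtggaagaggGGACaggtccctca
CENPF: ccccaaagctGGACtggagtccaa
PLK2: gtggcctgctGGACtggttggaac
CENPB: tggagccttcGGACatagccgcct

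All positions are on GRCh38, with exons of the canonical GENCODE release 44 transcript. The last or single exon held the site in 9 of the 10 transcripts. In the 3′ UTR were those of CCNE1 (chr19:29824045-29824068, + strand), 280 nt past the stop codon in exon 12 of 12, CDC25A (chr3:48157846-48157869, - strand), 1088 nt past it in exon 15 of 15, and CCNB1 (chr5:69177962-69177985, + strand), 343 nt past it in exon 9 of 9. The CDT1 site (chr16:88808660-88808683, + strand) was 394 nt, the CDK9 site (chr9:127789836-127789859, + strand) 305 nt and the PLK2 site (chr5:58454434-58454457, - strand) 138 nt past the stop, in exons 10 of 10, 7 of 7 and 14 of 14. Coding sites close to the stop codon were those of AURKA (chr20:56370286-56370309, - strand, exon 9 of 9), 139 nt before it, and CENPF (chr1:214663743-214663766, + strand, exon 20 of 20), 39 nt before it. The CDC37 site (chr19:10395050-10395073, - strand) lay in exon 5 of 8, 451 nt before the stop codon, and the CENPB site (chr20:3785337-3785360, - strand) in its single exon, 664 nt before the stop. The letters of the AURKA window occur at 2 places in GRCh38 and those of the other 9 at 1 place each. A site is a match of letters under a peak, since the peaks do not resolve single bases.

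The origin licensing genes, which mark origins and load the MCM helicase, were mostly higher in shY2-2. Of 15 members, all above the filter, 12 had ratios above 0, and the median was 0.20. Among the helicase subunits MCM2 to MCM7, 5 of 6 were above 0. MCM7 had 85.8 FPKM in shNC and 114 in shY2-2, a log2 ratio of 0.40. MCM4 had 35.6 and 39.7 FPKM (ratio 0.15), and MCM6 25.8 and 37.7 FPKM (0.53). MCM3 was the subunit below 0, at 47.9 and 45.5 FPKM (-0.07). The MCM7 locus shares exon bases with the microRNA gene MIR93 on the same strand and with AP4M1 on the other.

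CDT1, which brings the MCM complex to origins together with CDC6, was the licensing member past 1.5-fold, with 10.3 FPKM in shNC and 16.4 in shY2-2 (0.62). GMNN, geminin, the protein that holds CDT1 inactive after S phase begins, had 9.09 and 9.78 FPKM (0.10). CDC6 had 24.9 and 29.7 FPKM (0.24). Of the 6 subunits of the origin recognition complex 4 were above 0, from ORC1 at 15.7 and 21.1 FPKM (0.41) to ORC2 at 8.78 and 7.78 FPKM (-0.16).

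The genes that act after licensing gave a mixed picture. CDC45, a partner of the active MCM helicase, had 14.5 FPKM in shNC and 20.1 in shY2-2 (0.45). MCM10, which is needed for firing, had 10.9 and 11.5 FPKM (0.07). CDC7, the kinase that triggers firing, had 6.13 and 5.36 FPKM (-0.16). MCM8 and MCM9, which form a separate helicase used in recombination, were both lower, MCM8 at 7.78 and 5.64 FPKM (-0.40) and MCM9 at 1.18 and 0.809 FPKM (-0.27). No member of this group passed 1.5-fold in either direction.

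The cyclins and kinases of the G1 and S phases spread more widely than any other role, from -0.62 to 1.61. CCNE1, cyclin E1, which activates CDK2 at the entry to S phase, had 12.1 FPKM in shNC and 39.0 in shY2-2, the highest ratio of all members at 1.61. Its close relative CCNE2 went the other way, with 1.96 and 0.936 FPKM (-0.61). Their partner CDK2 had 7.67 FPKM in shNC and 12.8 in shY2-2 (0.67). CDC25A, the phosphatase that removes inhibitory phosphates from CDK2, had 5.86 and 11.2 FPKM (0.83). CCNE1, CDK2 and CDC25A act in the activation of cyclin E with CDK2, as does the lower CCNE2. A shared change at this step was not tested.

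The D cyclins and their kinases, which act earlier in G1, did not share a direction. CCND1 had 70.9 FPKM in shNC and 50.7 in shY2-2 (-0.47), and CCND3 had 34.7 and 50.3 FPKM (0.52). CDK4 was level at 33.0 and 33.4 FPKM (0.02). CDK6, the other kinase of the D cyclins, had 7.49 and 4.53 FPKM (-0.62). CDC34, a ubiquitin-conjugating enzyme of the SCF ligases, had 17.9 and 24.2 FPKM (0.41).

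The mitotic cyclins, kinases and phosphatases had a median of 0.42, close to the 0.41 of the G1 and S phase role, with 6 of 8 members above 0. CCNB1, cyclin B1, had 60.6 FPKM in shNC and 94.6 in shY2-2 (0.63). AURKA, which drives centrosome maturation and spindle assembly, had 39.3 and 64.3 FPKM (0.70). CDC25B, which activates CDK1 at the entry to mitosis, had 63.4 and 83.0 FPKM (0.38). All 3 CDC25 phosphatases were above 0. The exceptions were CDK1 itself, at 18.1 and 15.6 FPKM (-0.20), and CCNA2, cyclin A2, at 37.9 and 34.3 FPKM (-0.14).

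PLK1, the polo-like kinase of mitosis, had 29.3 FPKM in shNC and 40.4 in shY2-2 (0.45), while its 3 relatives were all below 0. PLK2, a stress-responsive kinase, had 19.8 and 8.02 FPKM (-1.20), the lowest ratio of all members. PLK3 had 2.62 and 1.60 FPKM (-0.48). PLK4, which starts centriole duplication, had 6.97 and 4.94 FPKM (-0.42). CENPJ, which sets centriole length, was likewise lower, at 5.77 and 4.13 FPKM (-0.40).

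**Figure D2:**
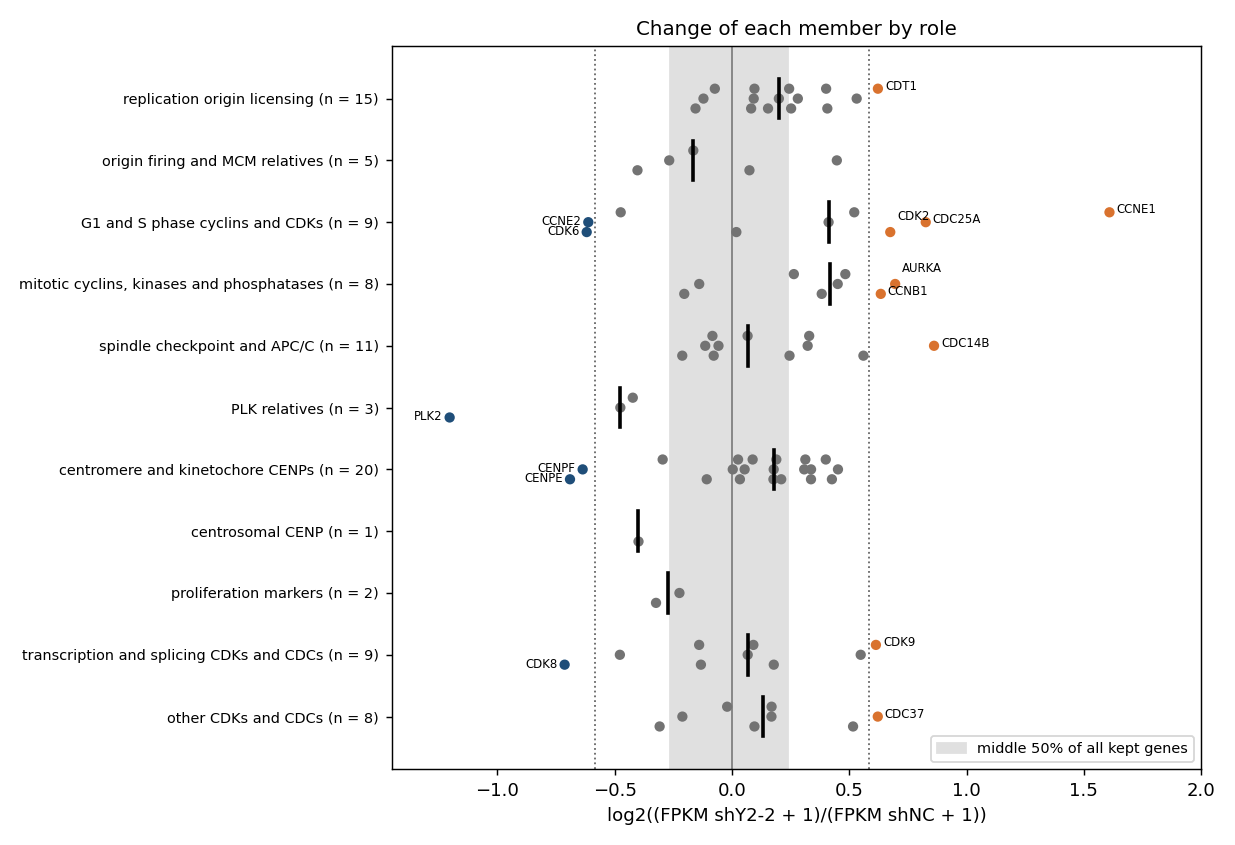
Log2 ratio of each of the 91 members by role (1 point a gene), with the median of each role as a black bar, the middle 50% of all 12268 genes shaded (-0.26 to 0.24) and dotted lines at 1.5-fold. The mitotic and G1/S roles have medians near 0.4, the 3 PLK relatives all lie below 0, and CCNE1 and PLK2 stand at the ends.

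The spindle checkpoint and anaphase-promoting complex (APC/C) genes stayed close to the median of all genes. Of 11 members above the filter, 6 were above 0, with a median of 0.07. CDC20, the APC/C activator that the checkpoint restrains, had 57.4 FPKM in shNC and 72.0 in shY2-2 (0.32). AURKB, the kinase of the chromosomal passenger complex, had 25.7 and 38.4 FPKM (0.56). BUB1 had 21.4 and 20.2 FPKM (-0.08), and the APC/C subunits CDC16, CDC23, CDC26 and CDC27 ranged from -0.11 to 0.33. CDC14B, a phosphatase of proteins modified by CDKs, was past the limit at 0.987 and 2.61 FPKM (0.86), a pair of low values whose ratio rests most on the pseudocount.

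Most centromere and kinetochore genes had small ratios above 0. Of 20 members 16 were above 0, with a median of 0.18, and none was more than 1.5-fold higher. The 4 below 0 were CENPE, CENPF, CENPC and CENPK. CENPB, which binds a sequence box in centromeric satellite DNA, was the most abundant, at 59.2 FPKM in shNC and 63.0 in shY2-2 (0.09). CENPA, the histone H3 variant that defines the centromere, had 10.9 and 14.0 FPKM (0.34). CENPX had 21.0 and 21.4 FPKM (0.03), and CENPV 18 and 23 FPKM (0.34).

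CENPE and CENPF were past the limit in the other direction. CENPE, a kinesin motor that moves chromosomes to the spindle equator, had 4.20 FPKM in shNC and 2.22 in shY2-2 (-0.69). CENPF, a large kinetochore protein made in G2, had 18.1 and 11.3 FPKM (-0.64). Their reference transcripts are 8541 and 10290 nt long, the longest of the 20. The CENPs that remained ranged from CENPC (-0.30) to CENPO (0.45).

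The proliferation markers, both of long transcripts, were lower. TOP2A, the topoisomerase that separates sister chromatids, had 122 FPKM in shNC and 97.4 in shY2-2 (-0.32). MKI67, which encodes the Ki-67 antigen of mitotic chromosomes, had 14.8 and 12.6 FPKM (-0.22). Neither passed 1.5-fold. PCNA, a replication clamp that is no member, had 233 and 288 FPKM (0.31), so commonly used markers of dividing cells did not share a direction.

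Members that carry a CDK or CDC name but act in transcription or splicing had a median of 0.07. CDK9, the kinase that releases paused RNA polymerase II, had 14.7 FPKM in shNC and 23 in shY2-2 (0.61). CDK7, a subunit of the transcription factor TFIIH that also activates other CDKs, had 8.76 and 13.3 FPKM (0.55). CDK8, a kinase of the Mediator complex, was lower at 5.55 and 3.00 FPKM (-0.71), whereas its paralog CDK19 had 2.53 and 3.00 FPKM (0.18). CDC5L, a component of the spliceosome, had 10.3 and 9.28 FPKM (-0.14).

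The remaining CDKs and CDCs include CDC37, the co-chaperone that delivers kinases to HSP90, with 25.5 FPKM in shNC and 39.8 in shY2-2 (0.62). CDC123, a factor for assembly of the translation initiator eIF2, was level at 45.1 and 44.4 FPKM (-0.02). CDK16 had 21.3 and 31.0 FPKM (0.52). The other 5 above the filter lay between -0.31 and 0.17. The values of CDK3 (0.945 and 1.19 FPKM) are uncertain, since the readthrough gene TEN1-CDK3, at 2.61 and 2.83 FPKM, shares its exons. In all, 12 members share exon bases with another gene on the same strand and 33 with a gene on the other strand.

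Genes around the members were taken from 9 lists of partners and regulators, also chosen with earlier results of these data known. Of 94 list genes above the filter 68 were above 0 (72.3%, all genes 50.3%), with a median of 0.18 against 0.00 for all genes. More than 1.5-fold higher were 11, where 5.38% of all genes were, and more than 1.5-fold lower were 4, where 8.92% were. In the RB and E2F list E2F1, an activator of S phase genes, had 18.5 FPKM in shNC and 32.6 in shY2-2 (0.79) and TFDP2 had a ratio of 0.71, while E2F3 had 7.23 and 2.68 FPKM (-1.16). Among the CDK inhibitors CDKN1A, the p53-responsive inhibitor p21, had 52.7 and 29.3 FPKM (-0.83), and CDKN2C had 5.19 and 7.69 FPKM (0.49). WEE1, the kinase that places the inhibitory phosphate that CDC25 removes, had 1.95 and 6.22 FPKM (1.29), against a low of -0.18 for CKS2 among the CDK regulators.

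In the mitotic lists the genes past 1.5-fold were all higher. UBE2S and UBE2C, the ubiquitin-conjugating enzymes of the APC/C, had 102 and 200 FPKM (0.96) and 63.4 and 100 FPKM (0.66). PTTG1, securin, had 52.1 and 79.0 FPKM (0.59), and the lowest of that list was ANAPC1 (-0.39). MYBL2, a transcription factor of G2 genes, had 54.3 and 98.3 FPKM (0.84), with LIN54 lowest of its list (-0.52). BIRC5, survivin, had 6.57 and 12.2 FPKM (0.80) against TTK (-0.19), and SPC24 of the NDC80 complex had 4.55 and 8.09 FPKM (0.71) against KNL1 (-0.36). Among fork and DNA synthesis genes GINS3 (0.72) and DBF4 (0.61), the partner of CDC7, were higher, and POLA1 (-0.69) and GINS1 (-0.66) lower. The genes of dNTP supply ran from DUT (-0.22) to RRM2 (0.53).

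The direction of a member went with the GC content and length of its transcript and with its level. Across the 91 members, Spearman's correlation of the log2 ratio was -0.40 with spliced length, 0.49 with GC content and 0.38 with mean FPKM. Across 12111 other genes with a reference transcript it was -0.25 with length and 0.28 with GC content, and it was 0.13 with mean FPKM across 12177. These values are across genes of a single pair of libraries, and genes are not independent replicates. Of the 27 members of at most 2000 nt, 24 were above 0 (median 0.19, other genes 0.11), while of the 20 over 5000 nt 7 were above 0 (median -0.18, other genes -0.15).

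Ratios were also centred on the median of the other genes in the same decile of length and decile of GC content, an alternative chosen after the data were seen. The members' median became 0.17, with 60 of 91 above 0. Higher were then 8 members (4.24% of other genes) and lower 2 (7.65% of other genes). CENPE, CENPF, CDK6 and CCNE2 came within the limit on the lower side, with CENPE at -0.34 and CENPF at -0.28. CCNE1 stayed at 1.5 and PLK2 at -1.23. MCM6 (0.62) and BUB3 (0.60) passed the limit on the higher side, and CDT1, CDC37 and CDK9 came within it. TOP2A moved from -0.32 to -0.02.

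**Figure D3:**
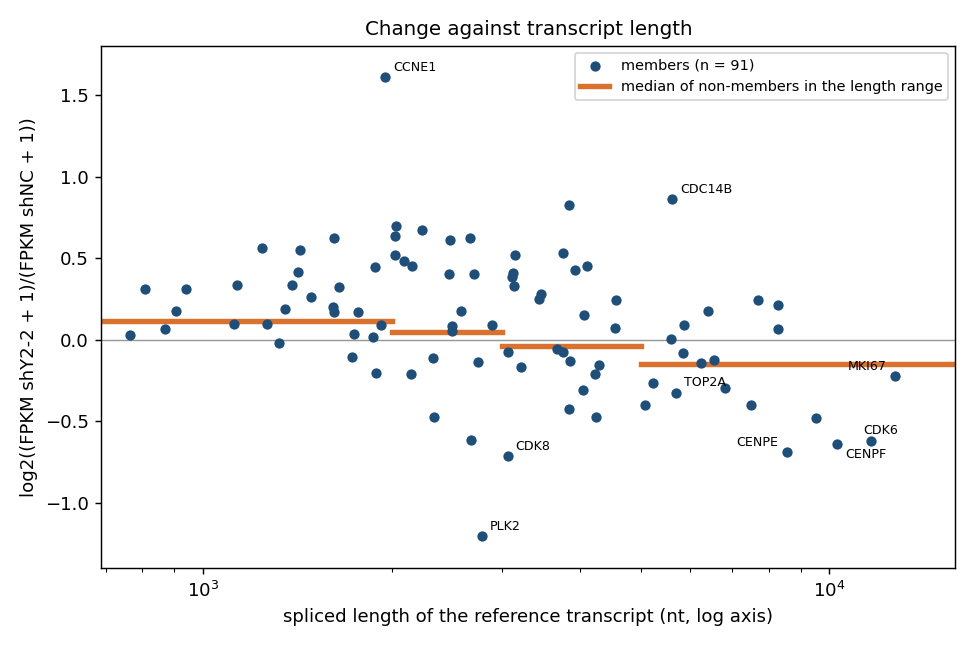
Log2 ratio of the 91 members (points) against the spliced length of their reference transcript on a log axis, with the median of genes that are no member in 4 length ranges as orange bars. The bars step down from 0.11 to -0.15, and CENPE, CENPF, CDK6 and MKI67 stand at the long end below 0.

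E2F binding letters were more frequent in the members' promoters than in all promoters, though most members lacked them. Promoter windows of RefSeq (GRCh38.p14, 250 bases before to 50 after the start) were matched for 84 of the 97 members. TTTCCCGC or TTTGGCGC, forms of the E2F consensus, were looked for on both strands and found in 14 of them (16.7%), against 2.31% of 27305 promoters. The 27305 were taken without a filter on FPKM. Of members above the filter the 14 with a match had a median log2 ratio of 0.29 and the 65 without one 0.07. Among other genes the medians were 0.05 and 0.00. CCAAT stood in 50.0% of member windows and 35.7% of all, and TTTGAA, the cell cycle homology region, in 19.0% and 15.4%. The ratios did not split the same way by these letters. Members with TTTGAA had a median of -0.09 (n = 16) and those without it 0.09 (n = 63). For CCAAT the medians were 0.08 (n = 39) and 0.09 (n = 40). A match is a description of letters and not of binding.

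The windows of the members past 1.5-fold that held the letters, and of MCM6, which held them at 2 places, are printed with the match in capitals to show their neighbourhood. In CDT1 the capitals are the reverse complement of TTTCCCGC.
CDC25A: ggattccgTTTGGCGCcaactagg
CDC37: gggcggggTTTCCCGCgctcggcg
CDT1: gggcgcccGCGGGAAAtttggcgg
MCM6, nearer: tggtcaggTTTGGCGCgaaatctc
MCM6, farther: gctttgcaTTTGGCGCgaaatccc
They lie at chr3:48188446-48188469 (- strand), chr19:10403573-10403596 (- strand), chr16:88803746-88803769 (+ strand), chr2:135876518-135876541 and chr2:135876580-135876603 (both - strand), in that order. The match begins 44 bases before the start in CDC25A, 46 in CDC37, 35 in CDT1, and 90 and 152 in MCM6.

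Most members carried m6A peaks in both conditions. The authors' peak lists held 245 shNC peaks in 84 members and 206 shY2-2 peaks in 85 members. Of the 91 members above the filter, 78 (85.7%) had a peak in both lists, where 72.7% of all genes tested had. The members were also more abundant than other genes, with a median mean FPKM of 11.2 against 5.11. At an FDR of at most 0.05 in both lists the count was 64 (70.3% of members, 51% of all genes). Members with peaks in both lists had a median log2 ratio of 0.16.

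CCNA2, CCNE2 and CDK6 had no peak in either list, a state shared by 13.1% of all genes. All 3 had ratios below 0, with a median of -0.61. The cyclin pair CCNE1 and CCNE2 thus differed in both readouts, with 1 and 2 peaks and a higher level for CCNE1, and no peak and a lower level for CCNE2. CCNE2 was low in both inputs, at 1.96 and 0.936 FPKM. Other genes without peaks had a median FPKM of 2.04, and those with peaks in both lists 6.59. Whether the missing CCNE2 peak goes with its low level was not tested. Among other genes, those without peaks had a median of -0.02 and those with peaks in both lists 0.02.

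Peaks in a single list were few and mostly weak. CDC26, CDC40, CDK10, CDK5 and CDK8 had a peak in the shNC list only (8.58% of all genes), and CDC14A, CENPE, CENPO, CENPP and PLK1 in the shY2-2 list only (5.7% of all genes). Of these 10, CDC40 and PLK1 had a peak at an FDR of at most 0.05. CDC40, a splicing factor, had 3 shNC peaks, 2 of them at that FDR, with a fold enrichment (IP over input) of at most 2.29. With the FDR limit applied to each list, 10 members were in the shNC list alone (CDC40, CDC7, CDC73, CDK17, CDK2, CDK3, CENPI, CENPK, CENPL and PLK3, 13.8% of all genes) and MCM7 and PLK1 in the shY2-2 list alone (5.83% of all genes).

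The peaks themselves were of ordinary strength, and most met a peak of the other condition. Median fold enrichment was 1.97 over the shNC member peaks and 2.06 over the shY2-2 member peaks, beside 2.17 and 2.26 for all peaks. Of the shNC member peaks 61.2% met a shY2-2 peak (95% Wilson interval 55.0% to 67.1%), where 55.9% of all shNC peaks did. In the other direction 77.2% did (71.0% to 82.4%), where 65.4% of all shY2-2 peaks did. Such intervals allow for counting error alone. By role, the share of shNC peaks that met a shY2-2 peak ran from 2 of 8 in the PLK relatives to 14 of 15 in the mitotic cyclins, kinases and phosphatases and both peaks of CENPJ.

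Member peaks were spread over coding sequences and 3′ UTRs. By the authors' annotation 54.3% of shNC and 58.7% of shY2-2 member peaks were in 3′ UTRs (all peaks 59.1% and 59.5%). On the reference transcripts 49 of 219 placed shNC peaks (22.4%) and 47 of 173 shY2-2 peaks (27.2%) were centred within 200 nt of the stop codon, while 104 and 64 were centred farther upstream and 66 and 62 farther downstream. At an FDR of at most 0.05 the shares within 200 nt were 29.5% and 34.8%. Distances were not computed for the peaks of other genes. GGAC was present in 58.4% of shNC and 56.8% of shY2-2 member peaks, beside 60.9% and 60.6% of all peaks. In the common part of overlapping peaks 57 of the 97 members held it, a count not made for other genes.

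**Figure D4:**
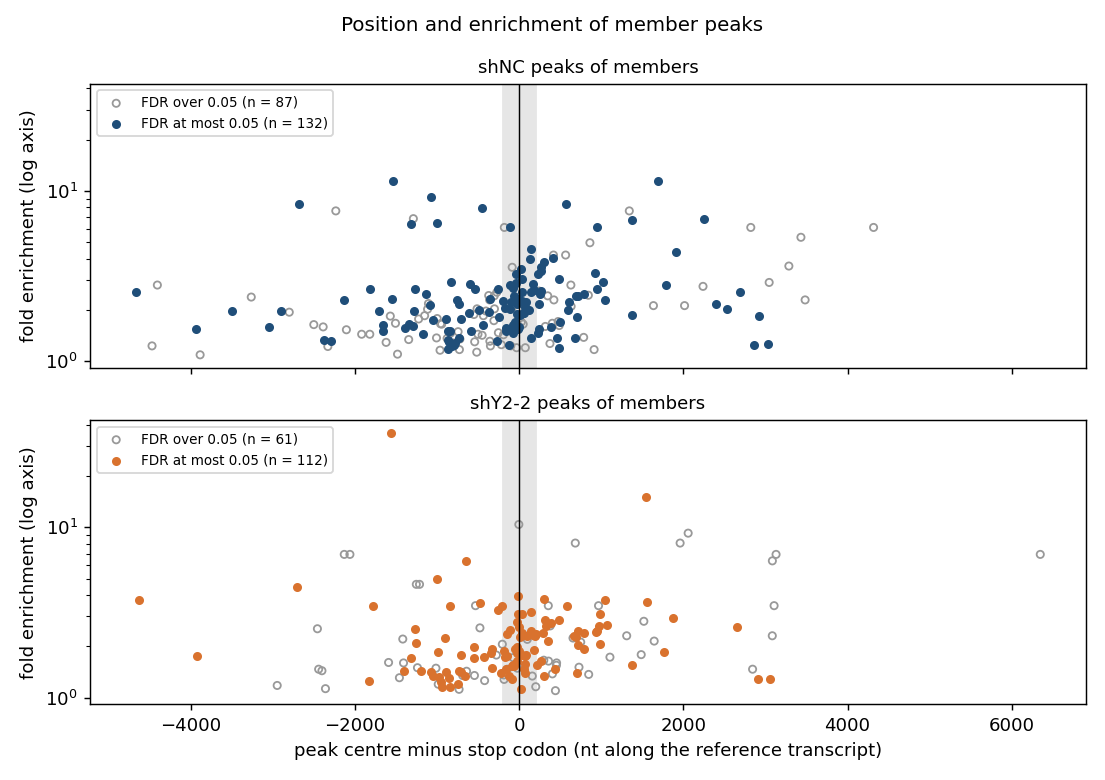
Fold enrichment (log axis) of member peaks in the shNC list (above) and the shY2-2 list (below) against the distance of the peak centre from the stop codon along the reference transcript, with the 200 nt on either side shaded. Of the peaks at an FDR of at most 0.05, 39 of 132 and 39 of 112 lie in the shaded band.

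The most enriched member peaks were at CDK19, ORC2, CCND3, CDC45, MCM8 and CDK9 in shNC, and at CDK19, PLK1, MCM7, ORC2 and CCND3 in shY2-2. CDK19 had 11.4 in shNC (FDR 0.0141) and 35.8 in shY2-2 (FDR 3.47e-08), the highest of that list, over its 5′ UTR and the start of its coding sequence. ORC2, level with CDK19 in shNC, had 11.4 and 15.0 in its 3′ UTR, with FDRs of 0.0214 and 0.00437. The GGAC window of that ORC2 peak occurs at 3 places in GRCh38. CCND3 had 10.9 and 11 (FDR 1.35e-06 and 8.71e-08) at a position outside its reference transcript. CDK19, with 2.53 and 3.00 FPKM, was among the less abundant members.

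PLK1 had no shNC peak and a shY2-2 peak of 21.4 (FDR 1e-12), outside the reference transcript at chr16:23687254-23687403. All 150 bases of it lie in annotated PLK1 exons of other transcripts. They also lie in the opposite-strand gene AC008870.3, listed at 0 FPKM in shNC and at 0.219 in shY2-2. MCM7 had a shY2-2 peak of 15.0 (FDR 0.00676) that met a shNC peak of 7.63 whose FDR was 0.140. That shNC peak lies outside the reference transcript of MCM7. The strongest peak by FDR was that of CENPB, with an enrichment of 7.97 in shNC (FDR 1e-181) and 6.34 in shY2-2 (FDR 1e-180). The shNC peak reaches past the stop codon, while the shY2-2 peak lies wholly in the coding sequence, and their common part holds 6 GGAC. A separate, weaker shY2-2 peak (1.13, FDR 0.00832) lies over the stop codon, within the same shNC peak.

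Some peaks assigned to members lie over exons of neighbouring genes, and some of these touch no exon of the member. At least 50% of 19 shNC and 28 shY2-2 member peaks is covered by exons of a gene on the other strand, in 12 and 14 members. CDC20B, an APC/C activator relative, is close to absent (0.0107 and 0 FPKM) and yet has 3 and 4 peaks. All 7 lie wholly within exons of GPX8 on the other strand, which had 9.74 and 7.55 FPKM, and none touches an annotated CDC20B exon. The CENPT peak of 3.07 and 2.56 lies wholly within THAP11, at 18.1 and 16.8 FPKM. Of its 894 bases in shNC and 924 in shY2-2, 66 are in CENPT exons. Upstream peaks of CENPA touch no CENPA exon and lie wholly in SLC35F6 on the same strand, which had 18.8 and 6.77 FPKM.

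Enrichment was compared over the most enriched pair of overlapping peaks in each member with an FDR of at most 0.05 in both lists, 62 members in all. In 36 of the 62 enrichment was lower in shY2-2, a share close to that of other genes (3143 of 5751). These counts, and the comparison with level below, include pairs that lie in other genes, as for CENPA (SLC35F6) and CENPT (THAP11). The CCND3 pair lies outside its reference transcript. Members with lower enrichment included CDK9 (8.39 and 2.85), MCM8 (8.39 and 4.46), CDK16 (6.10 and 2.42), MKI67 (6.79 and 3.65) and CCNB1 (4.03 and 2.74). The largest difference was at CDC45, with 9.16 in shNC and 1.42 in shY2-2 and FDRs of 0.0107 and 0.0214. The other CDC45 pair, at the stop codon, had lower FDRs (0.000692 and 1.07e-05) and went the other way, from 2.18 to 2.78. CDK4 (6.49 and 5.01), CENPS (4.58 and 2.41), CDC14B (3.50 and 2.46) and PLK4 (2.67 and 2.10) were lower too. ORC5 (3.57 and 3.80), CCNB2 (3.05 and 3.10), CDC16 (2.32 and 3.08), TOP2A (2.40 and 2.48) and CDC37 (2.67 and 3.60) were level or higher. Over all 143 pairs of member peaks the median log2 change in enrichment was -0.01, and over all pairs in the lists -0.07.

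Enrichment was then set beside the change in level. Of the 8 members in this comparison more than 1.5-fold higher in input FPKM, 6 had lower enrichment in shY2-2, with a median log2 change of -0.53. Lower enrichment was also seen in 30 of the 52 members within 1.5-fold (median -0.10) and in 57.8% of the 334 other genes past 1.5-fold higher (median -0.08). For CCNE1 enrichment over the site printed above was 3.26 in shNC and 1.56 in shY2-2, for AURKA 3.82 and 2.41, and for CDC25A 3.29 and 2.46. CDT1 (2.60 and 2.65) and CDC37 (2.67 and 3.60) were the exceptions in their most enriched pair. Another CDC37 pair, over the stop codon, had lower FDRs (3.98e-18 and 3.98e-22) and went the other way, from 2.63 to 1.91. The remaining CDC37 pairs were near level (1.36 and 1.44, 1.18 and 1.16). So were the other pairs of CCNB1 (1.93 and 1.92, 1.65 and 1.71), a member with lower enrichment in its most enriched pair. Both members more than 1.5-fold lower, PLK2 (1.92 and 2.38) and CENPF (1.54 and 2.27), had higher enrichment, and of 363 other genes past 1.5-fold lower 48.8% had lower enrichment (median log2 change 0.01). Spearman's correlation between the log2 ratio of FPKM and that of enrichment was -0.31 across the 62 members and -0.05 across 5751 other genes. Input libraries are the denominator of the enrichment and the source of the FPKM, so both measures share them.

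**Figure D5:**
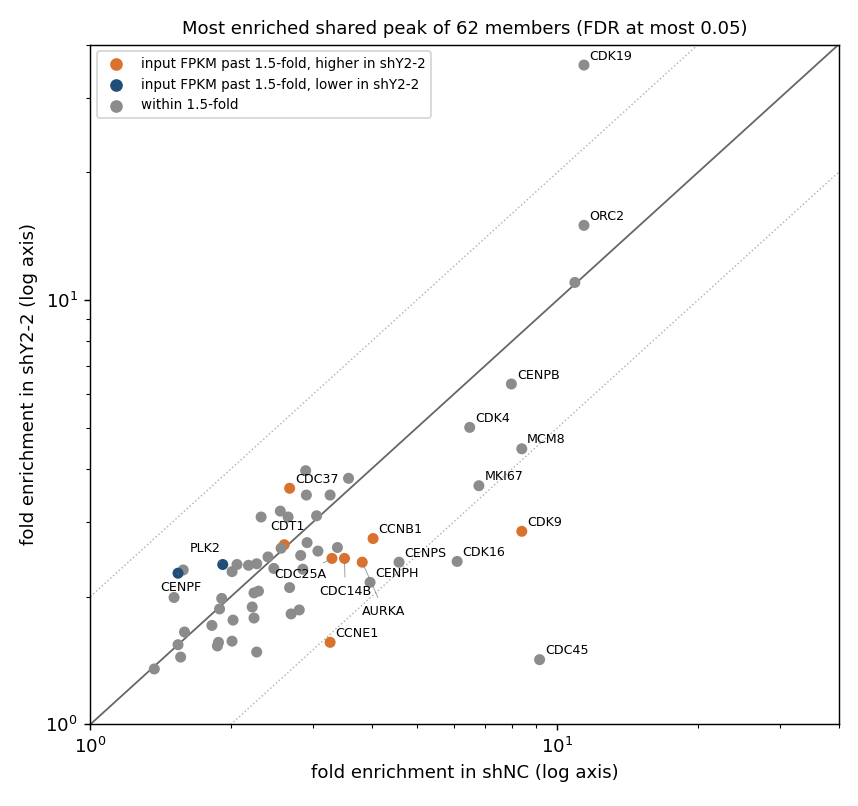
Fold enrichment in shY2-2 against shNC (both log axes) of the most enriched shared peak in each of 62 members, coloured by the change of input FPKM, with equality as a solid line and 2-fold as dotted lines. CDK19 lies above the upper dotted line, CDC45, CDK9, CDK16 and CCNE1 lie below the lower one, and 6 of the 8 orange points lie below equality.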

How the data were processed

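The authors mapped strand-specific reads to GRCh38 with HISAT2, calculated the deposited FPKM per gene from the 2 input libraries with StringTie, and called peaks with exomePeak on each IP library against its own input, so that no replicates were pooled. Per the file headers each deposited peak has a p-value, scores (log10 of that p-value and of the FDR) and a fold enrichment, which is a linear ratio. Versions and the strand setting of the FPKM calculation are not given in the sources used here. Columns of the authors' own comparisons were not used.

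Genes were kept if either input reached an FPKM of 1, and log2 ratios used a pseudocount of 1. Identical peaks were merged, and peaks were compared by exonic overlap on the same strand of at least 1 bp. The strand of a peak was taken from the gene it was assigned to. Overlapping peaks of 1 list that were not identical stayed separate and were counted separately. Depth per library is unknown for FPKM and peaks. Named genes are members past 1.5-fold, the 3 highest in mean FPKM in each role, the most enriched peaks and members with a peak in 1 list only at an FDR of at most 0.05, and in each list the genes past 1.5-fold and at either end. MCM6, BUB3, MCM9, CENPA, PCNA and further genes outside this rule were chosen with their values known. Members and lists were chosen with earlier results of these data known. Alternatives were another pseudocount, other filters, centring, stricter peak limits and other overlap rules. On simulated FPKM values for 12268 genes, 200 of 200 genes changed to 2.5 or 0.4 times their value (FPKM of at least 5) were recovered. These changes were set well past the 1.5-fold limit, so the simulation checks the calculation alone. It does not measure how reliable a call from 2 single libraries is. Python 3.11.15, NumPy 2.4.6, pandas 2.3.3 and matplotlib 3.10.9 were used.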

Additional observations from a re-analysis of the deposited data

How the results depend on the processing

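No paired analysis was possible because each condition has 1 library of each kind. The 9 higher and 6 lower members stayed within 1.5 times those counts under another pseudocount, filter or centring, and came to 1 and 1 at a 2-fold limit. The members' median log2 ratio was 0.11 with a pseudocount of 0.1, 0.15 with an FPKM of at least 5 and 0.086 after centring. Added after the data were seen, centring within deciles of length and GC content gave 2 lower members and a median of 0.17, and leaving out members that share exons on the same strand gave a median of 0.090. All 15 members past 1.5-fold stayed past it with a pseudocount of 0.1 and after centring, and 8 of 15 did after centring on length and GC content, none with a changed sign.

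Members with a peak in both lists, 78 of 91, were 48 at an FDR of at most 0.001 and 8 at a fold enrichment of at least 4. At an FDR of at most 0.05, 10 had a peak in the shNC list only and 2 in the shY2-2 list only, the share of shNC and shY2-2 member peaks met by the other list became 73.0% and 86.2%, and the share in 3′ UTRs 65.2% and 66.7%. The peaks carry no read counts, so weak peaks cannot be weighed by depth.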
